A study of Mus musculus with 4 samples.

Results

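The 57 genes described here mark or regulate 3 lineages that arise as mouse pluripotent cells differentiate: mesoderm (20 genes), endoderm (19 genes) and trophoblast (18 genes). They were fixed by name, and each was read from the probe set whose platform annotation gives that single gene symbol. All 57 had such a probe set, among 19938 genes represented in the same way on the arrays. Only Dab2 had a further probe set of its own, and the one with the higher mean was used. Gata4 and Gata6 were counted with endoderm and Gata2 and Gata3 with trophoblast, although each also acts elsewhere.

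Both groups were E14 cells, a mouse embryonic stem cell line, grown in 15% serum with leukemia inhibitory factor on primary embryonic fibroblasts that mitomycin C had stopped from dividing. Untreated cells gave 2 arrays, and cells with 0.5 mM valproic acid (VPA, an inhibitor of histone deacetylases) in the medium for 4 h gave 2 arrays. The labels name no genetic change in either group. They call the arrays replicates and do not say that the cultures were separate, so p-values rest on the spread between arrays of a group and that spread may be technical. Signals are log2 values, so a difference of 1 is a 2-fold change.

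Mesoderm and definitive endoderm form when epiblast cells pass through the primitive streak under T-box, Mixl1 and Gsc control. Primitive endoderm, driven by GATA and SOX factors, splits into visceral endoderm, which takes up and secretes nutrients, and parietal endoderm, which lays down basement membrane. Trophectoderm, governed by TEAD, GATA, AP-2 and ETS factors, makes the placenta. Most of these regulators are kept at low levels in self-renewing stem cells, many of them by Polycomb proteins, and histone deacetylases take part in their repression.

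Defining markers of the stem cell state were mostly bright, with a median untreated level of 9.9 over 14 listed stem cell genes. All 14 lay above the reference for dim probe sets explained next, the lowest being Dppa3 with an untreated mean of 4.00. Pou5f1 (Oct4) read 10.75 and 10.96 in untreated and 10.85 and 10.63 in VPA cells. Of the 14, 10 had a lower mean with VPA (median log2 difference −0.22). At an unadjusted p under 0.05, 4 were lower (28.6%, where 2.71% of represented genes were) and 0 higher: Nanog by −0.48 ± 0.14 (SE), Sall4 by −0.43 ± 0.11, Lin28a by −0.34 ± 0.12 and Utf1 by −0.33 ± 0.12, none called after adjustment with limma. This list was chosen with earlier results of these data known, so its share is a description and not a test. Fibroblast markers of the feeder cells gave signal too, with 24 of 28 above that reference, and Col1a2 read 6.15 and 6.25 in untreated and 6.24 and 5.99 in VPA cells. The mean level of the 28 markers was 4.89 and 4.92 in untreated and 4.88 and 4.86 in VPA cells. In bulk RNA, fewer cells of a type and less RNA per cell cannot be told apart. The part of feeder RNA in the levels below was not tested. SDs of the difference between replicate arrays over all probe sets were 0.311 in untreated and 0.285 in VPA cells, and 0.199 and 0.268 over the 57 genes.

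Baseline signals of the 57 genes had a median of 4.06, near the 4.22 of all represented genes and far below the 9.9 of the 14 stem cell genes. No detection calls were used here, so 1205 probe sets of olfactory and vomeronasal receptor genes, which act in sensory neurons, served as a reference for dim probe sets. The 95th percentile of their untreated means was 3.27. Untreated means of 47 of the 57 genes lay above it (82.5%), against 68.3% of all represented genes. By lineage these were 17 of 20 mesoderm, 15 of 19 endoderm and 15 of 18 trophoblast genes. A signal above this line is a description of a probe set, and probe sets differ in affinity, so the order of genes is not an order of transcript amounts.

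**Figure D1:**
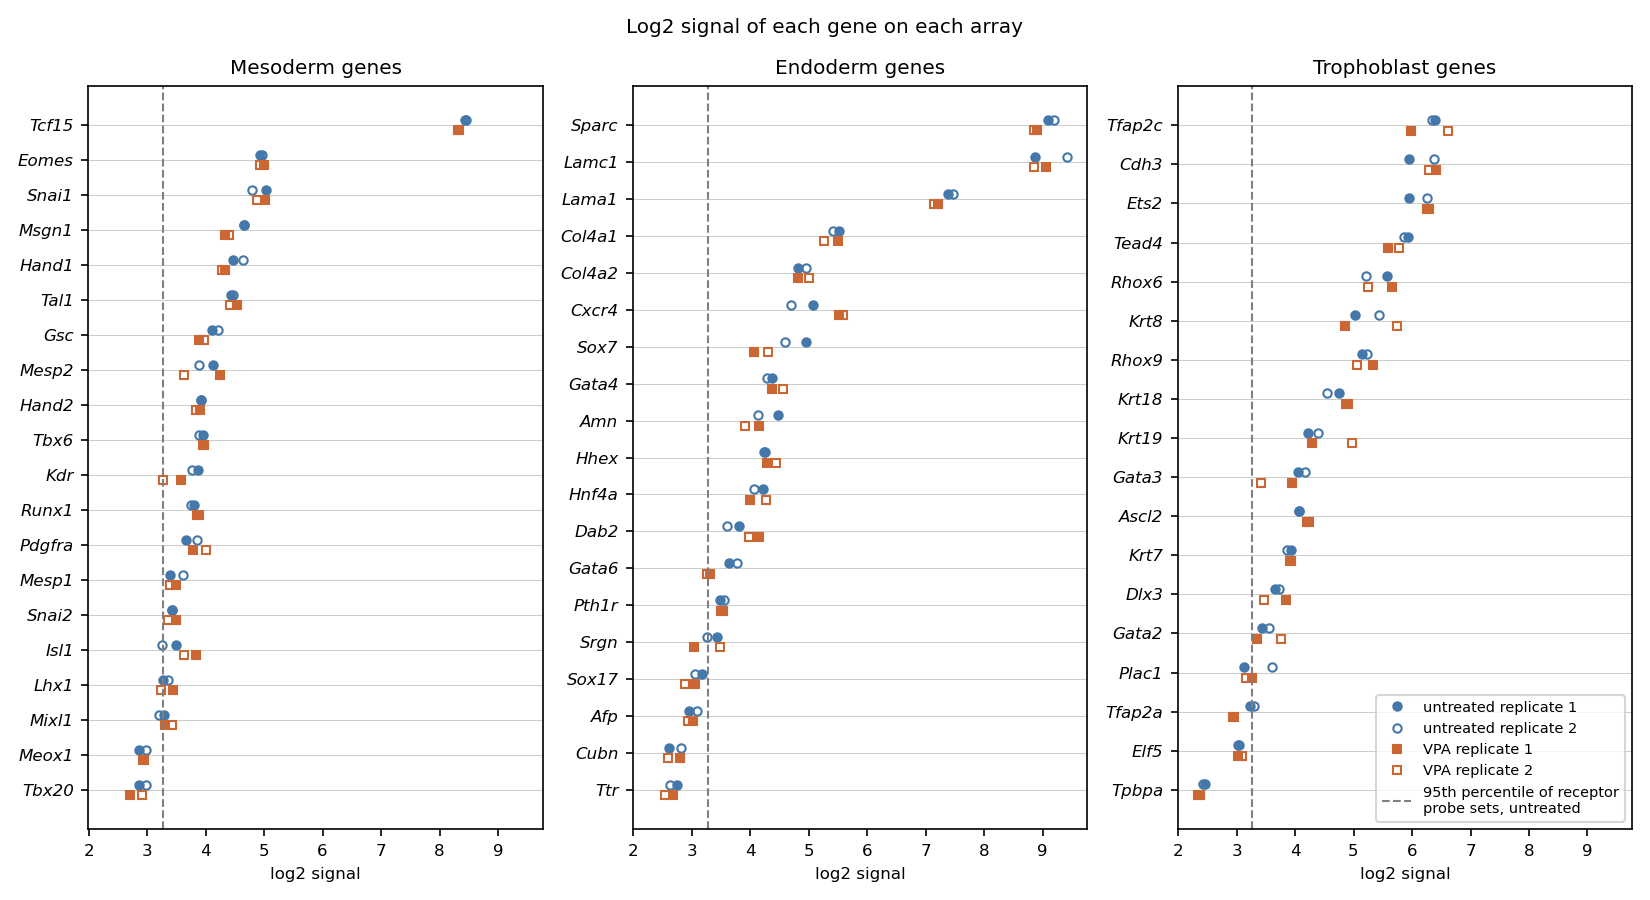
Log2 signal (x axis) of each of the 57 genes on each array, in 3 panels by lineage, ordered by untreated mean; circles are untreated arrays, squares VPA arrays, filled for replicate 1 and open for replicate 2. The dashed line is the 95th percentile of receptor probe sets in untreated cells, 3.27. Tcf15, Sparc, Lamc1 and Lama1 stand apart above 7, and most other genes lie below 6.5.

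The median untreated level was 3.87 for mesoderm, 4.24 for endoderm and 4.21 for trophoblast genes, against 4.22 for all represented genes. At the dim end, the 10 genes not above the receptor line were Mixl1, Meox1 and Tbx20, Sox17, Afp, Cubn and Ttr, and Tfap2a, Elf5 and Tpbpa. Among them are products of mature cells: Ttr (transthyretin, secreted by visceral endoderm) had an untreated mean of 2.69, Cubn (an endocytic receptor) 2.71 and Tpbpa (a product of the placental junctional zone) 2.44. Elf5, a trophoblast stem cell factor, had an untreated mean of 3.03.

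Promoter sequence differed widely among the genes, and the following 4 are shown to span this range. The RefSeq table of GRCm38.p6 held 49 promoters of 38 of the 57 genes; the others were Cdh3, Dlx3, Gata4, Gata6, Hand1, Krt19, Lama1, Lamc1, Meox1, Mixl1, Rhox6, Rhox9, Snai2, Sox17, Sox7, Tcf15, Tead4, Tfap2c and Ttr. Each sequence is the 250 bases before the annotated start, 5′ to 3′ in the direction of the gene, with CG dinucleotides in capitals. Cxcr4 (chr1:128592300-128592549, minus strand) had the largest difference with VPA, Isl1 (chr13:116309689-116309938, minus strand) is a CpG-dense gene of low signal, Sparc (chr11:55420081-55420330, minus strand) is bright, and Afp (chr5:90490464-90490713, plus strand) is dim.
Cxcr4: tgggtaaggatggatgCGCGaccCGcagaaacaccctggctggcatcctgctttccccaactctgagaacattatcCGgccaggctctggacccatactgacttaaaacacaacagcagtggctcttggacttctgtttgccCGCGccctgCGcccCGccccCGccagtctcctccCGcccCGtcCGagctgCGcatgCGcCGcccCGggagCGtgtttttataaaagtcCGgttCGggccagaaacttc
Isl1: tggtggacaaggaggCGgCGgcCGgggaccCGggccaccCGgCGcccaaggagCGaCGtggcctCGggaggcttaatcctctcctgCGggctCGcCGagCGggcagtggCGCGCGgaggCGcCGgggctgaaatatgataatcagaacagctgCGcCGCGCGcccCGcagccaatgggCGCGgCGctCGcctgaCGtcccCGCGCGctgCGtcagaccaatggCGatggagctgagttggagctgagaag
Sparc: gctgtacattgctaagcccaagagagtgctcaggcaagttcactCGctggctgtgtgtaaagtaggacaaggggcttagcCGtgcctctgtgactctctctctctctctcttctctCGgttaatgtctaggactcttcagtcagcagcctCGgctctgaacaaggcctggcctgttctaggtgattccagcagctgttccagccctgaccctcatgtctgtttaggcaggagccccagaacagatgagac
Afp: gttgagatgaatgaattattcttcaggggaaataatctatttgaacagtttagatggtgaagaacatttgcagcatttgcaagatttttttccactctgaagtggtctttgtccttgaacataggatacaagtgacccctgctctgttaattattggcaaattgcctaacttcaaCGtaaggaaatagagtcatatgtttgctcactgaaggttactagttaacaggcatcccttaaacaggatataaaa

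Cxcr4 has 19 CG dinucleotides in this window, Isl1 33, Sparc 4 and Afp 1. Counting a promoter as CpG-rich when observed over expected CG exceeds 0.6, 23 of the 49 were CpG-rich (46.9%), against 34.0% of 32851 promoters in the table. The share was 58.8% of 17 mesoderm, 41.2% of 17 endoderm and 40.0% of 15 trophoblast promoters. Isl1 had a signal of 3.38 with 33 and Sparc 9.14 with 4, but these 4 genes were picked, so they cannot show how density and signal relate. Among promoters of genes above the receptor line described earlier, 51.2% of 41 were CpG-rich. Among promoters of genes not above it, 25.0% of only 8 were. Whether density and signal are related was not tested. The letters TATAAA, on either strand, occurred in 5 of the 49 promoters (10.2%) and in 12.4% of all promoters.

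With VPA, no gene of the 57 passed the test, and the 2 largest differences were those of endoderm genes. Cxcr4, a chemokine receptor on definitive endoderm, was 1.59-fold higher in mean signal, and Sox7, a primitive endoderm factor, was 1.51-fold lower. With limma and Benjamini-Hochberg adjustment over all 35556 probe sets, 0 of the 57 were called (smallest adjusted p 0.474), as were 0% of all probe sets. On simulated data, whose noise may not match that of the real arrays, this fit called 0.4% of 1.5-fold and 0.8% of 2-fold changes. Having 0 calls therefore does not show that the genes were unchanged. At an unadjusted p under 0.05 there were 7 of the 57, where the share was 8.61% of represented genes and 9.19% of probe sets. Of these, 2 were higher (3.51% of 57), where 5.9% of represented genes and 5.76% of probe sets were higher. The other 5 were lower (8.77%), where 2.71% of represented genes and 3.43% of probe sets were lower. Those 5 became 3 with the replicate number as a block, 2 without untreated replicate 1 or without VPA replicate 1, and 1 without either of the other arrays. They were also 2 with the dimmer probe sets left out of the fit. That run tested only 36 of the 57 genes and no longer held Gata6, Kdr or Tfap2a, so this smaller count is partly a loss of genes. The 2 higher genes became 0 without VPA replicate 2, and 1 with an intensity trend or with the mean over all probe sets of a gene.

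Of the 57 genes, 27 had a higher and 30 a lower mean with VPA, against 53.7% higher and 46.3% lower over represented genes and 51.7% and 48.2% over probe sets. The median log2 difference was 0.0078 for mesoderm, −0.075 for endoderm and 0.026 for trophoblast genes, beside 0.015 for represented genes and 0.0078 for all probe sets. The mesoderm median turned to −0.014 after a second quantile normalization. It was −0.051 without VPA replicate 1 and −0.0077 without untreated replicate 1. The trophoblast median was −0.032 without untreated replicate 1 and −0.011 without VPA replicate 2. The endoderm median stayed below 0 with any 1 array left out, between −0.118 and −0.0352. Groups did not overlap for 11 higher genes (19.3%, background 24.1%) and 15 lower genes (26.3%, background 18.1%). Of these only Cxcr4 and Sox7 also differed by 1.5-fold, where 0.973% of represented genes did so upward and 0.266% downward (2.02% and 0.768% of probe sets). The count of 2 was 1 without either untreated array and 3 without VPA replicate 1.

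**Figure D2:**
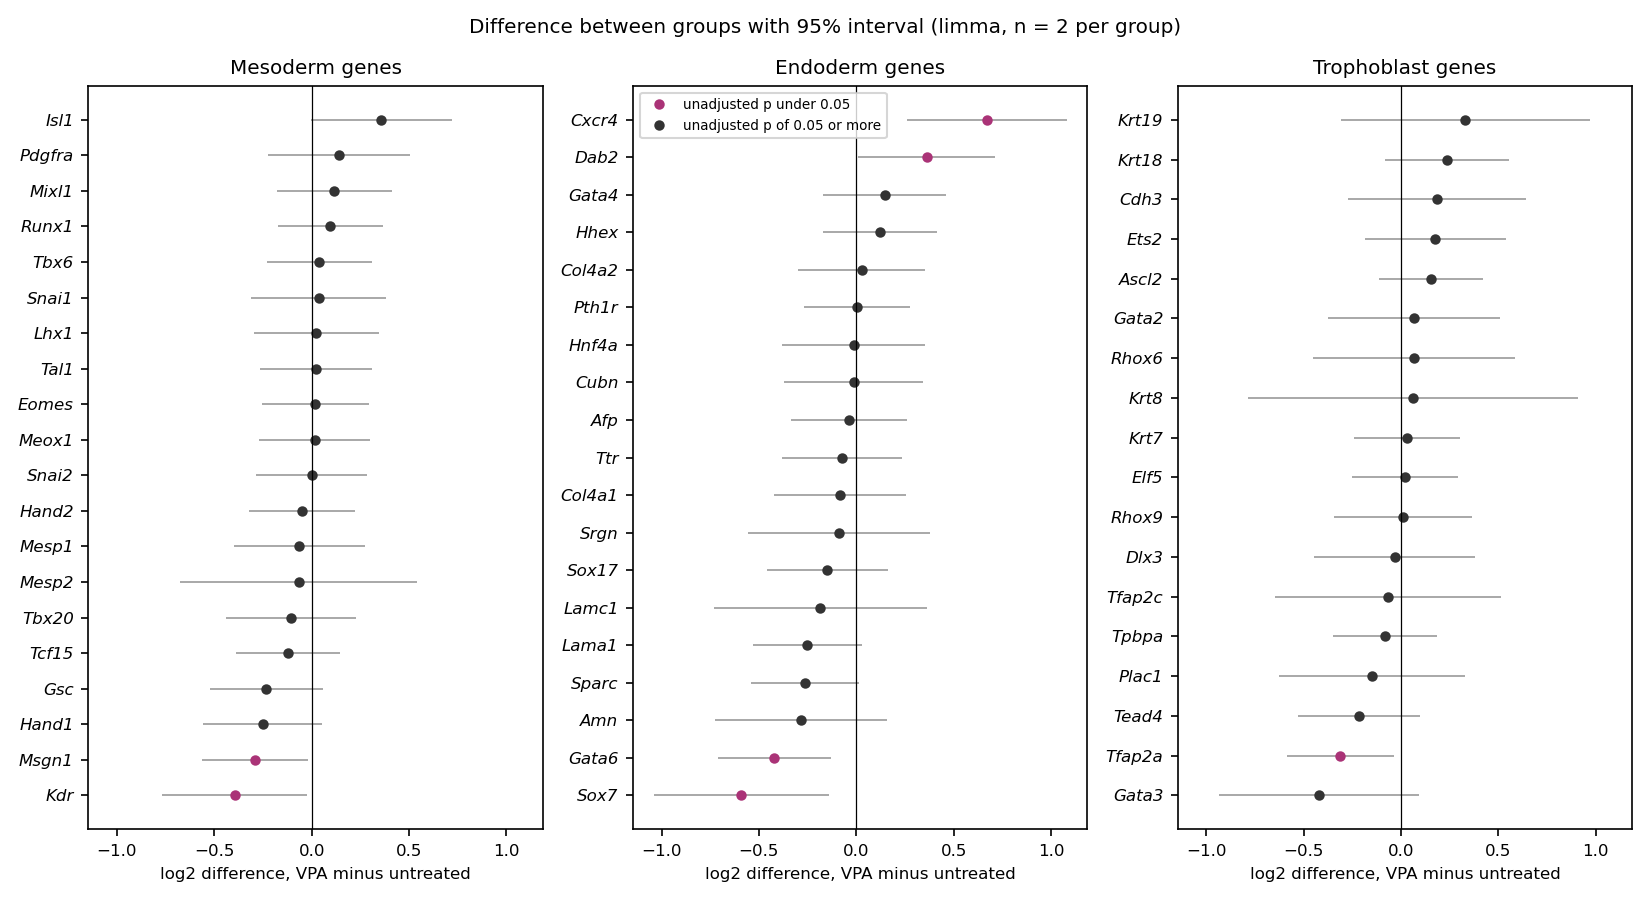
Log2 difference, VPA minus untreated (x axis), for each of the 57 genes by lineage, ordered by size; points are limma estimates from 2 arrays per group, lines their 95% intervals, and purple points have an unadjusted p under 0.05. Cxcr4 at 0.67 and Sox7 at −0.59 are the extremes, and most intervals cross 0.

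Among primitive streak regulators, no group difference reached an unadjusted p of 0.05. Gsc, a homeobox gene of the anterior streak, read 4.11 and 4.22 in untreated and 3.89 and 3.97 in VPA cells. Its VPA arrays lay below both untreated ones, by −0.23 ± 0.11 (SE). Mixl1, which directs streak cells toward mesoderm and endoderm, read 3.29 and 3.20, then 3.30 and 3.42. Eomes, a T-box gene for streak, endoderm and trophoblast, read 4.928 and 4.960 in untreated and 5.001 and 4.927 in VPA cells. The Eomes groups overlapped, and the 95% interval of the difference ran from −0.26 to 0.29. The mean difference, 0.019, turned to −0.022 after a second quantile normalization. Lhx1, a LIM homeobox gene, had overlapping groups around an untreated mean of 3.31.

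Paraxial mesoderm, the source of the somites, was represented by 6 genes. Msgn1, a presomitic bHLH factor, read 4.65 and 4.66 in untreated and 4.33 and 4.40 in VPA cells. Its VPA arrays were lower by −0.29 ± 0.11 (SE), more than the gap between replicates (adjusted p = 0.529 with limma). Tcf15, a bHLH factor of the somites that stem cells also express, was the brightest mesoderm probe set, at 8.45 and 8.44 in untreated and 8.31 and 8.33 in VPA cells. That separation was narrow, −0.12 ± 0.10. Tbx6, Mesp1, Mesp2 and Meox1, which act in somite formation and early mesoderm, had untreated means of 3.92, 3.50, 4.01 and 2.92. Mesp2 spread most between replicates, at 4.25 and 3.63 in VPA cells.

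Means of the lateral and cardiac mesoderm genes differed in both directions. Isl1, a LIM homeobox gene of cardiac progenitors, read 3.49 and 3.26 in untreated and 3.83 and 3.64 in VPA cells. Its signals were low, with 1 untreated array just under the receptor line, and its VPA arrays lay above both untreated ones by 0.36 ± 0.14 (SE). Hand1, a bHLH factor of lateral mesoderm and trophoblast giant cells, read 4.47 and 4.64, then 4.34 and 4.28. It was lower by −0.25 ± 0.12 without overlap. Hand2 (untreated mean 3.92) and Tbx20 (2.92) are both cardiac regulators. Hand2 was lower by −0.049 without overlap, and the Tbx20 groups overlapped. The 95% intervals of all 4 genes, Isl1 and Hand1 included, spanned 0.

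Kdr, the VEGF receptor that marks blood and vessel progenitors, had the smallest p of the mesoderm genes. It read 3.87 and 3.77 in untreated and 3.57 and 3.27 in VPA cells, a difference of −0.40 ± 0.14 (SE, adjusted p = 0.529 with limma). Both VPA arrays were lower, and the second lay at the receptor line. Runx1, a blood factor, read 3.798 and 3.748, then 3.880 and 3.858, a difference of 0.096 ± 0.10. Tal1, another blood factor, overlapped between groups at an untreated mean of 4.45. Of 7 blood genes measured beside these, 3 lay above the receptor line and 0 reached an unadjusted p of 0.05.

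The mesenchymal genes did not separate. Pdgfra, a growth factor receptor of mesoderm, primitive endoderm and fibroblasts, read 3.66 and 3.86 in untreated and 3.78 and 4.01 in VPA cells. Snai1, a repressor of E-cadherin, read 5.03 and 4.80, then 5.02 and 4.88. Its difference of 0.036 ± 0.13 (SE) turned sign after a second quantile normalization. Snai2, its relative, had a mean of 3.43 in untreated and 3.42 in VPA cells.

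Endoderm transcription factors held 2 of the 5 lower genes, and their means differed in both directions. Those 2 are 33.3% of 6 factors, where 2.71% of represented genes were lower at an unadjusted p under 0.05 with limma. The genes were chosen with earlier results known, so this share is a description and not a test. Sox7 read 4.95 and 4.59 in untreated and 4.06 and 4.31 in VPA cells, a difference of −0.59 ± 0.17 (SE, adjusted p = 0.500 with limma). Gata6, which starts the primitive endoderm programme, read 3.64 and 3.77, then 3.31 and 3.25. Its VPA values lay on either side of the receptor line, and the difference was −0.42 ± 0.11 (adjusted p = 0.485 with limma). Leaving out any 1 array kept the Sox7 difference between −0.77 and −0.41, and that of Gata6 between −0.49 and −0.36. Gata4, a partner of Gata6, had an untreated mean of 4.33 and a VPA mean of 4.47, so the means of the pair differed in opposite directions. The 95% intervals of Gata4, Sox17 (untreated mean 3.11), Hhex (4.24) and Hnf4a (4.15) all spanned 0. Hhex is a homeobox gene of anterior endoderm and Hnf4a a nuclear receptor of visceral endoderm. Groups did not overlap for Gata4, Sox17 and Hhex, with differences of 0.15, −0.15 and 0.12, and overlapped for Hnf4a.

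Among endoderm receptors, Cxcr4 read 5.07 and 4.70 in untreated and 5.51 and 5.59 in VPA cells. Both VPA arrays lay above both untreated arrays, and the difference was 0.67 ± 0.16 (SE), with a 95% interval from 0.26 to 1.08 and an adjusted p of 0.474 with limma. It stayed between 0.48 and 0.86 with any 1 array left out. Pth1r, the parathyroid hormone receptor of parietal endoderm, lay at 3.52 in both groups. Srgn, a secretory proteoglycan, read 3.43 and 3.27, then 3.04 and 3.48, and its groups overlapped.

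Genes for visceral endoderm uptake and secretion were mostly dim. Dab2, an endocytic adaptor, read 3.81 and 3.60 in untreated and 4.15 and 3.98 in VPA cells. It was higher by 0.36 ± 0.14 (SE, adjusted p = 0.536 with limma), while its second, dimmer probe set (untreated mean 2.43) gave −0.013 ± 0.12. Amn, the membrane partner of cubilin, read 4.48 and 4.13, then 4.14 and 3.90, with overlap. Afp (alpha-fetoprotein), Ttr and Cubn had VPA means of 2.98, 2.61 and 2.69, all under the receptor line.

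Basement membrane genes were the brightest endoderm probe sets, and 4 of 5 had a lower mean with VPA. Over represented genes, 46.3% had a lower mean and 18.1% were lower without overlap, beside 40% of these 5 without overlap. Sparc, a matrix glycoprotein, read 9.09 and 9.19 in untreated and 8.89 and 8.86 in VPA cells, a difference of −0.26 ± 0.11 (SE, adjusted p = 0.551 with limma). Lama1, a laminin chain, read 7.38 and 7.46, then 7.21 and 7.13, a difference of −0.25 ± 0.11. Neither gene overlapped between groups, and both differed by more than their replicates did. Lamc1, another laminin chain, read 8.87 and 9.41, then 9.06 and 8.84, so that the untreated arrays were farther apart than the groups, and without untreated replicate 2 its difference was 0.085. The collagen IV genes overlapped, Col4a1 at 5.52 and 5.41, then 5.50 and 5.27, and Col4a2 at 4.82 and 4.95, then 4.82 and 5.01. The direction of Col4a2 turned after a second quantile normalization. Fibroblasts make several of these proteins too. Of the 28 feeder markers, 10 had a higher and 18 a lower mean with VPA, with a median of −0.069, and their part in these differences was not tested.

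Trophoblast transcription factors had no shared direction. Tfap2a, an AP-2 factor, had the smallest p of the lineage, at 3.22 and 3.30 in untreated and 2.96 and 2.94 in VPA cells. Its difference was −0.31 ± 0.11 (SE, adjusted p = 0.510 with limma) at signals on or under the receptor line. Its relative Tfap2c, which stem cells and germ cells also use, was the brightest trophoblast probe set, at 6.39 and 6.34, then 5.99 and 6.61. The Tfap2c VPA arrays lay on both sides of the untreated ones. Gata3 read 4.05 and 4.16, then 3.94 and 3.42, a difference of −0.42 ± 0.20 that was −0.16 without VPA replicate 2. Ets2, which acts in trophoblast stem cells, read 5.95 and 6.25, then 6.26 and 6.29.

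Apart from Tfap2a, no trophoblast transcription factor reached an unadjusted p under 0.05. Tead4, which starts the trophectoderm programme, had a mean of 5.90 in untreated and 5.68 in VPA cells, without overlap. Ascl2, an imprinted bHLH gene of the spongiotrophoblast, had means of 4.06 and 4.21, also without overlap. The homeobox genes Rhox6 and Rhox9 had untreated means of 5.39 and 5.18, and overlapping groups. Gata2 (untreated mean 3.50) and the homeobox gene Dlx3 (3.69) overlapped as well.

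All 4 keratin genes, which encode the filaments of simple epithelia such as trophectoderm, had a higher mean with VPA, and only Krt18 separated. Over represented genes, 53.7% had a higher mean and 24.1% were higher without overlap, beside 25% of the 4 keratins without overlap. Krt18 read 4.75 and 4.54 in untreated and 4.87 and 4.90 in VPA cells, a difference of 0.24 ± 0.12 (SE, adjusted p = 0.620 with limma). Its filament partner Krt8 had the widest replicate gap of the 57 genes, at 5.03 and 5.44, then 4.86 and 5.74. Krt19 read 4.22 and 4.40, then 4.29 and 4.98. Both rested on VPA replicate 2: without it the difference was −0.38 for Krt8 and −0.012 for Krt19. Krt7 read 3.93 and 3.86, then 3.92 and 3.93, and its direction turned without untreated replicate 2.

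Placental products other than keratins did not separate by more than a narrow margin. Cdh3 (P-cadherin) read 5.95 and 6.38 in untreated and 6.41 and 6.29 in VPA cells. Tpbpa read 2.46 and 2.43, then 2.37 and 2.35, all far under the receptor line. Plac1, an X-linked placental gene, had means of 3.36 and 3.21.

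**Figure D3:**
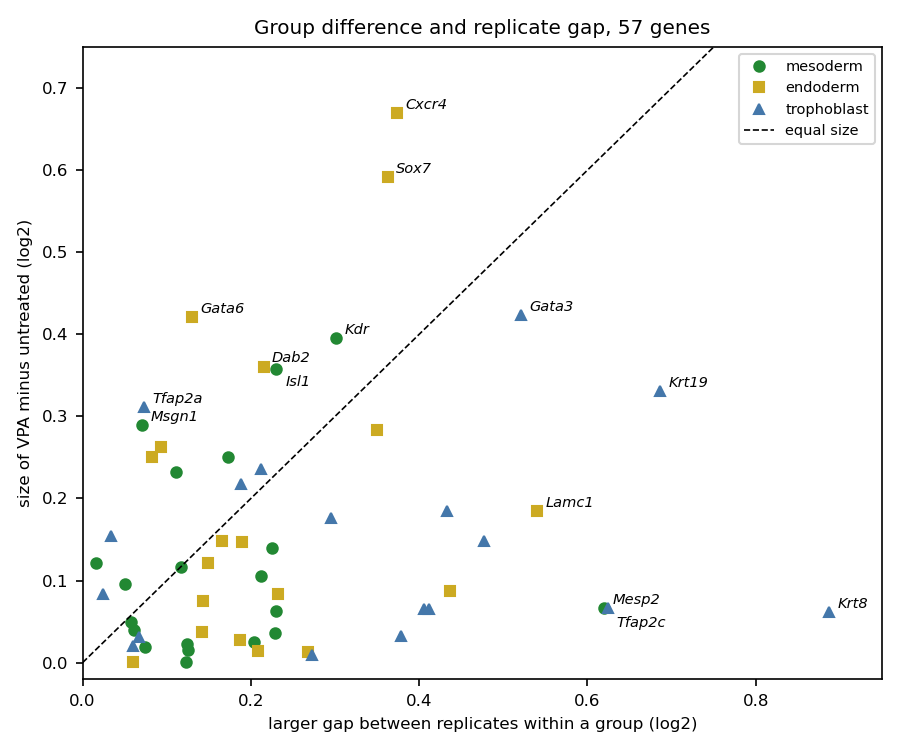
Size of the difference between group means (y axis, log2) against the larger of the gaps between replicates within a group (x axis, log2) for the 57 genes, with symbols by lineage and a dashed line where both are equal. Cxcr4, Sox7 and Gata6 lie above the line, and Krt8, Krt19, Gata3 and Lamc1 below it.

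Setting each difference against the larger of its 2 replicate gaps, 19 of the 57 genes lay above: 8 mesoderm, 6 endoderm and 5 trophoblast genes. That is 33.3%, beside 29.8% of represented genes and 27.9% of probe sets. The plot of differences against replicate gaps separates genes with a like mean difference. Gata6 and Gata3 both differed by −0.42, but the replicates of Gata6 were at most 0.13 apart and the VPA arrays of Gata3 were 0.52 apart.

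Other genes linked to the same lineages were read as context, from lists of further regulators and products. Untreated means reached 10.8 in the endoderm list and 11.1 in the trophoblast list, so these lists also hold genes bright in this culture. Of 19 other mesoderm genes, 2 were higher and 3 lower at an unadjusted p under 0.05, of 22 other endoderm genes 1 and 1, and of 20 other trophoblast genes 0 and 3, where 5.9% of represented genes were higher and 2.71% lower. None was called after adjustment with limma. Their median log2 differences were −0.093, 0.036 and −0.0083. The Notch ligand genes Dll1 and Dll3 differed in opposite directions, by −0.39 ± 0.11 (SE) and 0.41 ± 0.13. The cardiac gene Nkx2-5 differed by −0.47 ± 0.14 and Fgfr2, the FGF receptor of trophoblast stem cells, by −0.45 ± 0.11. Of the other endoderm genes, Cldn6 was higher by 0.72 ± 0.13 (adjusted p = 0.462 with limma) and Ihh lower by −0.43 ± 0.11. The Cldn6 difference was the largest of these lists and larger than that of Cxcr4.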

How the data were processed

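The authors deposited log2 signals, and the submitters' processing notes name RMA and version 1.1 of Affymetrix Expression Console. The set of arrays that entered the normalization is not given in these sources. Of 35556 probe sets, 21789 had 1 gene symbol, 1621 several and 12146 none in the platform annotation; a gene was read from its brightest single-symbol probe set. R 4.3.3 and limma 3.58.1 (lmFit, then eBayes) tested VPA against untreated over all probe sets, two-sided, with treatment as the only term and Benjamini-Hochberg adjustment at 0.05 (2 residual degrees of freedom, 2.93 added by moderation). An exact permutation test cannot give a p below 0.333 here. The fit was tested on 10 simulated sets, each with 200 changed probe sets among 35556. It called 0.4% of 1.5-fold, 0.8% of 2-fold, 58% of 4-fold and 78.2% of 8-fold changes. The simulated noise took the spread measured for each probe set on these 4 arrays as its true spread. Shares called on real data may therefore differ. For arrays, their number limits the precision. The genes and lists were chosen with earlier results of these data known. Every gene is named. Values on every array are given for genes with an unadjusted p under 0.05 or separate groups 1.5-fold apart, the 3 brightest of a lineage, the 2 of smallest p of a role, and all basement membrane and keratin genes, these last groups and Pou5f1 and Col1a2 being added after the values were seen. Context genes were named among the 4 of smallest p of a list. Promoters came from RefSeq (GRCm38.p6). Alternatives were a replicate block, other normalization, centring, filtering and moderation, the mean over a gene's probe sets, and each array left out.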

Additional observations from a re-analysis of the deposited data

How the results depend on the processing

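None of the 57 genes was called under any alternative run. Over the 8 recomputations of each difference, and fewer for dim genes, 46 of 435 turned sign, in 28 genes, so 29 genes kept their direction throughout. The labels number the arrays 1 and 2 in each group without saying that a number marks a shared culture, and the differences between replicates correlated at −0.097 across probe sets. With the replicate number as a block, 6 genes had an unadjusted p under 0.05, where the fit without it had 7. That count was 4 with the dimmer probe sets left out, which tests 36 of the 57, and ran from 1 to 5 with 1 array left out. Genes with separate groups and a 1.5-fold difference numbered 1 to 3 with 1 array left out. Over the same settings the mesoderm median ran from −0.0507 to 0.0311 and the trophoblast median from −0.0318 to 0.0429, and the latter was 0.0636 with the dimmer probe sets left out. After a second quantile normalization Eomes was at −0.0219, Col4a2 at −0.0126 and Snai1 at −0.00671, each positive on the deposited values. With 1 array left out, log2 differences of the other genes whose values are given and that turned sign ran from −0.0313 to 0.401 for Cdh3, −0.199 to 0.0327 for Col4a1, −0.0656 to 0.122 for Col4a2, −0.0175 to 0.0564 for Eomes, −0.0124 to 0.674 for Krt19, −0.00268 to 0.0644 for Krt7, −0.382 to 0.505 for Krt8, −0.455 to 0.085 for Lamc1, −0.0781 to 0.151 for Snai1, −0.306 to 0.131 for Srgn and −0.379 to 0.246 for Tfap2c. The cause of these turns was not tested. The count above the receptor line was 52 with its 90th percentile, 34 against the median of all probe sets, and 46 or 47 with 1 untreated array.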
